A study of Mus musculus with 13 samples.

Results

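The renin-angiotensin system genes Agt, Ren1, Ace, Enpep, Lnpep, Agtr1a, Agtr1b, Agtr2 and Mas1 were followed across 13 mouse aortas. They were chosen by name, and all 9 were found among the 54532 genes of the count table. All mice were ApoE−/−, a strain that lacks apolipoprotein E and is prone to atherosclerosis, and all received angiotensin II (AngII) at 1000 ng/kg/min from a subcutaneous osmotic pump from 10 weeks of age for at most 28 days, a treatment that induces abdominal aortic aneurysm. The 6 Ad-sham mice received the empty adenovirus, and the 7 Ad-FAM3A mice received the adenovirus carrying mouse Fam3a with a FLAG tag and mCherry under the EF1A promoter, by 5 tail vein injections. Aortas without AngII were not analysed here, so each value below is a level under AngII, and the only comparison is Ad-FAM3A against Ad-sham. The study's methods describe mice of either sex for AngII infusion and whole aortas, and the virus was given systemically. Sex-linked genes of the 13 aortas are given below.

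In the renin-angiotensin system, the enzyme renin cuts the liver-made precursor angiotensinogen, and angiotensin-converting enzyme then trims the product to AngII. AngII raises vascular tone mainly through the type 1 (AT1) receptor, which mice carry as a pair of genes, whereas the type 2 receptor and Mas are generally held to oppose it. Aminopeptidases shorten AngII further. In these mice AngII came from the pump, so the aortic messages for its precursor and processing enzymes were measured alongside an external supply of the hormone.

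Expression was measured as reads per gene. Library totals lay between 14481179 and 19797407 counts, and levels are given as CPM, a gene's share of the library's counts on a common scale, after scaling by trimmed mean of M values. Some library features touch the results. Genes of sympathetic neurons separated 8 aortas from 5, kidney genes stood out in 4 aortas, and by the mean log2 CPM of their list lymphoid genes were highest in Ad-FAM3A6 and Ad-FAM3A7. The smooth muscle markers Myh11 and Acta2 were at 494 and 1368 CPM or more in every aorta. Xist was under 1 CPM in all 13 libraries, and the Y-linked gene Ddx3y lay between 79.6 and 174 CPM, the pattern of male tissue. The delivered gene Fam3a had a median of 24.9 CPM in Ad-sham and 23.0 CPM in Ad-FAM3A, with a log2 fold change of −0.03 (SE 0.16, adjusted p = 0.971, edgeR).

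The AT1 receptor genes Agtr1a and Agtr1b are close copies on different chromosomes, so the stretch of coding sequence in which they can be told apart is shown before their counts. Coding bases 972 to 1061, near the end of the receptor's cytoplasmic tail, differ at 20 of 90 positions, which are in capitals, and both are read 5′ to 3′ on the coding strand from the GENCODE transcripts on GRCm38.
Agtr1a, chr13:30381925-30382014, plus strand: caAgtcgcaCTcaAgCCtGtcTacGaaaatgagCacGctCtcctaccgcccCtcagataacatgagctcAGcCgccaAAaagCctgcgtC
Agtr1b, chr3:20315380-20315469, minus strand: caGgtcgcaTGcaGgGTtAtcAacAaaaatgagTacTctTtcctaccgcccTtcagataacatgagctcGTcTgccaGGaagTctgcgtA
Over the whole coding sequence of 1077 bases each, 978 positions were identical (90.8%), and the longest identical run was 66 bases. No window of 150 bases, the read length, was shared by both transcripts (0 of 2050 windows in Agtr1a and 0 of 1998 in Agtr1b). Within the coding sequence, a window of that length held at least 5 differing positions, with a median of 13. How reads that matched both genes were counted is not given in the sources used here.

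Ordered by level per gene length (RPKM, the CPM per kilobase of gene model), the members ran from Ace to Mas1 in the following order. Ace, the converting enzyme, had the highest median over the 13 aortas, 69.0 RPKM, followed by Lnpep at 22.0 RPKM and Enpep at 8.98 RPKM, both membrane aminopeptidases. Agtr1a followed at 5.60 RPKM, Agt at 3.34 RPKM, Agtr1b at 0.756 RPKM, Ren1 at 0.439 RPKM, Agtr2 at 0.0579 RPKM and Mas1 at 0.0479 RPKM. The most abundant members were thus enzymes that form or cut angiotensin peptides, and the scarcest were the receptors Agtr2 and Mas1.

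Of the 8 neighbouring pairs in this order, 6 differed beyond the spread between aortas in an exact sign-flip test on log2(RPKM + 0.1), two-sided, with Benjamini-Hochberg adjustment over the 8 pairs. The pairs were set by the medians of these same aortas, so the p-values are not independent of the order. Ace exceeded Lnpep, and Lnpep exceeded Enpep, in 13 of 13 aortas (adjusted exact p = 0.000651 for each). Enpep exceeded Agtr1a in 11 of 13 aortas (adjusted exact p = 0.00781). Agtr1a and Agt were not separated, with Agtr1a higher in 9 of 13 aortas (adjusted exact p = 0.134). Agt exceeded Agtr1b in 11 of 13 (adjusted exact p = 0.00342), Agtr1b exceeded Ren1 in 10 of 13 (adjusted exact p = 0.0326), and Ren1 exceeded Agtr2 in 13 of 13 (adjusted exact p = 0.000651). Agtr2 and Mas1, at the lower end, were not separated (adjusted exact p = 0.444). Without Ad-sham4, Ad-sham6, Ad-FAM3A1, Ad-FAM3A4, Ad-FAM3A5 or Ad-FAM3A6, 5 pairs passed, and without Ad-sham2, 7 passed, while the order itself stayed as given in each case. The authors' mean FPKM for the groups, a separate deposited column, was 62.2 in Ad-sham and 73.1 in Ad-FAM3A for Ace, and 0.0868 and 0.0415 for Mas1.

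**Figure D1:**
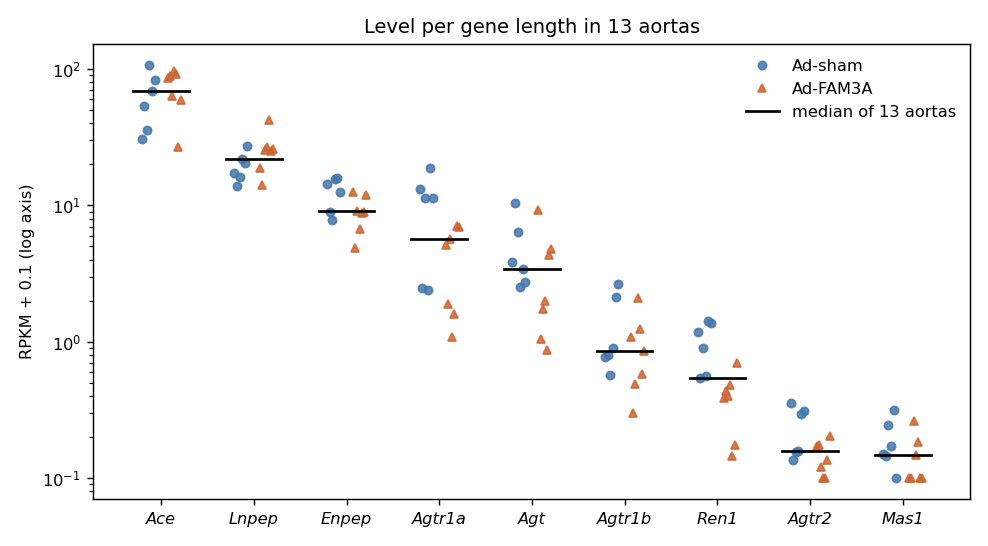
RPKM + 0.1 on a log axis for the 9 genes in order of their median, with 1 point per aorta (circles Ad-sham, triangles Ad-FAM3A) and a line at the median of the 13 aortas. Ace lies highest, at a median of 69.0 RPKM, Agtr2 and Mas1 lie lowest, and Agtr1a spreads the most widely of the 4 most abundant genes.

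The members also differed in how much they varied among the 13 aortas. On the log2 CPM scale the SD was 1.33 for Agtr1a, 1.11 for Agt, 1.10 for Ren1 and 0.96 for Agtr1b, whereas it was 0.66 for Ace, 0.50 for Enpep and 0.45 for Lnpep. That of Agtr1a was at the 94.2nd percentile of all genes tested and that of Lnpep at the 48.4th, against a median SD of 0.46 for all genes tested. Ren1 had 1 to 47 counts per aorta, so that counting error is part of its spread.

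Between the virus groups, 7 of the 9 members passed the filter on low counts and entered the edgeR quasi-likelihood test, and Agtr2 and Mas1 did not. At an adjusted p under 0.05, 0 of the 7 were called, as were 0% of the 15811 genes tested. At an unadjusted p under 0.05, 2 of the 7 passed, Ren1 and Agtr1a, against 5.91% of all genes, and both were lower in Ad-FAM3A, as were 2.93% of all genes, while 0 members and 2.98% of all genes passed as higher. Ren1 met the filter through the Ad-sham aortas, with at least 12 counts in 6 of 6 against 10 or more in 2 of 7 Ad-FAM3A aortas, so a lower level in Ad-FAM3A was partly set by the filter and the count of 2 is a description only. It was 1 without Ad-sham1, Ad-sham5, Ad-sham6, Ad-FAM3A4 or Ad-FAM3A5, with library totals or limma-voom, and without the 2 aortas highest in kidney genes. It was 3 without Ad-sham2 or Ad-FAM3A7 and without both aortas highest in lymphoid genes. DESeq2 on 9 members, a replicate block and the brown fat score as a covariate also gave 3. Without the 4 aortas highest in kidney genes it was 0. Where it stayed at 2, Enpep stood in place of Agtr1a without Ad-sham3 or Ad-FAM3A1, and Lnpep, higher in Ad-FAM3A, without Ad-FAM3A2. The number of all genes passing ran from 491 of 15984 without Ad-sham3 to 2269 of 30782 with no filter. Log2 fold changes, Ad-FAM3A over Ad-sham, were negative for 5 members and positive for 2, with a median of −0.51 over the 7 and of 0.0032 over all genes tested. Some marker lists also leaned with the virus groups, though 0 of their genes were called. Fold changes were positive for 7 of 7 smooth muscle, 8 of 8 lymphoid and 6 of 6 liver genes tested, and for 0 of 6 white fat, 0 of 5 brown fat, 0 of 6 sympathetic neuron, 0 of 5 mast cell, 1 of 6 fibroblast and 2 of 7 endothelial genes. In the other lists they were positive for 3 of 6 pericyte, 2 of 6 macrophage, 1 of 5 kidney, 0 of 2 cardiac muscle and 0 of 1 adrenal cortex genes. For all genes tested it was 7973 of 15811. Genes of a list were measured in the same aortas and are not independent observations. Of all these, 4 lymphoid, 2 white fat, 2 brown fat, 2 endothelial, 1 smooth muscle and 1 liver gene had an unadjusted p under 0.05. Their part in the members' values was not tested beyond the covariate fits that follow. DESeq2 called 0 members and 0.0516% of 19384 genes at an adjusted p under 0.05. The aortas are separate animals. Because the tissue was bulk, fewer cells of a type and less RNA per cell cannot be told apart.

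**Figure D2:**
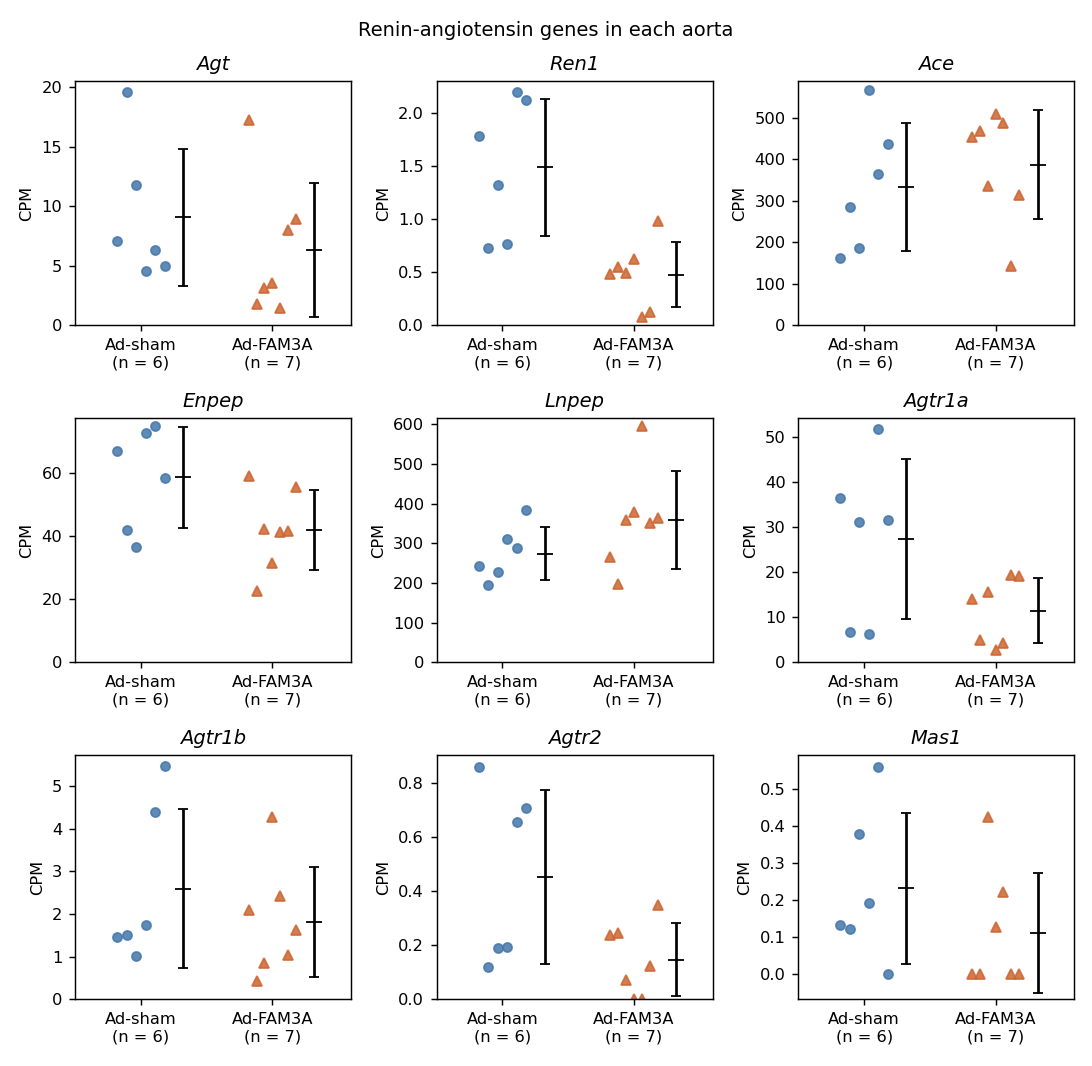
CPM of the 9 genes in each aorta (circles Ad-sham, n = 6, triangles Ad-FAM3A, n = 7), with the mean and SD beside each group and a separate linear axis per gene. The groups overlap for each gene, and all 7 Ad-FAM3A aortas lie below the Ad-sham median for Ren1, Agtr1a, Enpep and Agtr2.

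Agt encodes angiotensinogen, the only precursor of the angiotensin peptides. Agt (ENSMUSG00000031980, chr8:124556534-124569706, minus strand, GRCm38, as are all coordinates here) had a lowest, median and highest level of 4.55, 6.69 and 19.6 CPM in Ad-sham and of 1.47, 3.58 and 17.3 CPM in Ad-FAM3A. The ranges overlapped over most of their length, with 1 high aorta in each group, Ad-sham2 and Ad-FAM3A1. The log2 fold change was −0.52 (SE 0.55, adjusted p = 0.854, edgeR), and it ran from −0.99 without Ad-FAM3A1 to −0.14 without Ad-sham2. The summed level of the 6 liver markers ran from 5.02 to 63.4 CPM in Ad-sham and from 2.38 to 414 CPM in Ad-FAM3A, and Alb was highest in Ad-FAM3A1, at 319 CPM. The aortas next to it in mean log2 CPM of the liver list, Ad-FAM3A2 and Ad-FAM3A4, had 1.78 and 3.58 CPM of Agt, and Ad-sham2, with the highest Agt, had a liver list mean of 0.17. With the brown fat score as a covariate, the log2 fold change of Agt was −0.10 (unadjusted p = 0.873, edgeR). The part of liver or fat RNA in the level of Agt was not otherwise tested.

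Ren1 encodes renin, the aspartyl protease that performs the first cut of angiotensinogen and whose main source is the juxtaglomerular cells of the kidney. Ren1 (ENSMUSG00000070645, chr1:133350510-133360325, plus strand) was counted 27, 12, 21, 12, 47 and 33 times in Ad-sham1 to Ad-sham6 and 8, 9, 7, 10, 1, 2 and 17 times in Ad-FAM3A1 to Ad-FAM3A7. In CPM the lowest, median and highest values were 0.727, 1.56 and 2.20 in Ad-sham and 0.0736, 0.494 and 0.985 in Ad-FAM3A. The groups overlapped only through Ad-FAM3A7, at 0.985 CPM, which lay above Ad-sham2 at 0.727 CPM and Ad-sham4 at 0.770 CPM.

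Ren1 had the most negative log2 fold change of the 7 members tested, −1.62 (SE 0.49, unadjusted p = 0.00502, adjusted p = 0.810, edgeR). An exact permutation test of the difference in mean log2 CPM over the 1716 splits of the aortas, two-sided, gave p = 0.00466, where the smallest possible value is 0.00117. These p-values are for 1 gene that entered the test through its Ad-sham counts, and they do not hold after adjustment over all genes. Leaving out each aorta in turn gave log2 fold changes between −1.90 and −1.43, with an unadjusted p under 0.05 in 13 of 13. All 7 Ad-FAM3A values lay below the Ad-sham median, which was also so for Agtr1a and Enpep among the 7 members tested and for 4.6% of all genes tested.

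Kidney genes were measured beside Ren1 because renin is a kidney product. The summed level of the 10 kidney markers ran from 0.606 to 672 CPM in Ad-sham and from 0.878 to 394 CPM in Ad-FAM3A, with 4 aortas standing apart, namely Ad-sham3, Ad-sham5, Ad-sham6 and Ad-FAM3A3. Ren1 lay between 0.494 and 2.20 CPM in these 4 and between 0.0736 and 1.79 CPM in the other 9. Ad-FAM3A3 had the highest mean log2 CPM of the kidney list, and its Ren1 level was 0.494 CPM. Without these 4 aortas, which left 3 Ad-sham and 6 Ad-FAM3A, the log2 fold change of Ren1 was −1.18 (unadjusted p = 0.119, edgeR). The part of kidney RNA in the level of Ren1 was not tested.

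Ace encodes angiotensin-converting enzyme, the membrane peptidase of endothelium that forms AngII and degrades bradykinin. Ace (ENSMUSG00000020681, chr11:105967945-105989964, plus strand) had a lowest, median and highest level of 162, 325 and 568 CPM in Ad-sham and of 142, 454 and 510 CPM in Ad-FAM3A. Ad-FAM3A6 was the lowest of all 13 aortas, at 142 CPM, while the other 6 Ad-FAM3A aortas lay between 314 and 510 CPM, within the range of Ad-sham. The log2 fold change was 0.21 (SE 0.33, adjusted p = 0.897, edgeR), so the groups were not separated at this spread. It ran from 0.08 without Ad-sham1 to 0.43 without Ad-sham4.

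Enpep encodes aminopeptidase A, which removes the first residue of AngII and so makes angiotensin III. Enpep (ENSMUSG00000028024, chr3:129269175-129332720, minus strand) had a lowest, median and highest level of 36.6, 62.6 and 74.6 CPM in Ad-sham and of 22.5, 41.5 and 58.9 CPM in Ad-FAM3A. All 7 Ad-FAM3A aortas lay below the Ad-sham median, and the Ad-FAM3A range took in Ad-sham2, Ad-sham3 and Ad-sham6, at 41.9, 36.6 and 58.3 CPM. The log2 fold change was −0.48 (SE 0.23, unadjusted p = 0.0554, adjusted p = 0.810, edgeR), and the exact permutation test gave p = 0.0699. Leaving out 1 aorta at a time moved it between −0.58 and −0.35, with an unadjusted p under 0.05 in 4 of 13 cases, and with the brown fat score as a covariate it was −0.67 (unadjusted p = 0.00844, adjusted p = 0.933, edgeR).

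Lnpep encodes the insulin-regulated aminopeptidase, which cleaves oxytocin and vasopressin and binds angiotensin IV. Lnpep (ENSMUSG00000023845, chr17:17521410-17625050, minus strand) had a lowest, median and highest level of 196, 265 and 383 CPM in Ad-sham and of 198, 359 and 595 CPM in Ad-FAM3A. Apart from Ad-FAM3A5 at 595 CPM, the Ad-FAM3A values fell within the range of Ad-sham. The log2 fold change was 0.39 (SE 0.23, adjusted p = 0.812, edgeR), which together with Ace made this aminopeptidase and the converting enzyme the only tested members with positive values. It ran from 0.23 without Ad-FAM3A5 to 0.51 without Ad-FAM3A2 (unadjusted p = 0.0347, edgeR).

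Agtr1a encodes an AT1 receptor on which AngII-induced aneurysm in mice is known to depend. Agtr1a (ENSMUSG00000049115, chr13:30336441-30382867, plus strand) measured 36.4, 6.61, 31.0, 6.35, 51.7 and 31.5 CPM in Ad-sham1 to Ad-sham6. In Ad-FAM3A1 to Ad-FAM3A7 it measured 14.0, 4.98, 15.6, 2.76, 4.19, 19.3 and 19.2 CPM. Each group therefore held a higher and a lower set of aortas, and the groups overlapped because Ad-sham2 and Ad-sham4 lay below 4 of the Ad-FAM3A aortas.

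Mean CPM of Agtr1a was 27.3 ± 17.8 (SD, n = 6) in the Ad-sham aortas, against 11.4 ± 7.25 (SD, n = 7) with Ad-FAM3A. The log2 fold change was −1.25 (SE 0.56, unadjusted p = 0.0417, adjusted p = 0.810, edgeR), and the exact permutation test over the aortas gave p = 0.114. Without 1 aorta it lay between −1.46 and −0.97, with an unadjusted p under 0.05 in 5 of 13 cases. All 7 Ad-FAM3A values lay below the Ad-sham median of 31.3 CPM.

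Agtr1a was higher in the aortas in which genes of sympathetic neurons were high. The list held 6 genes, among them Th and Dbh, enzymes of noradrenaline synthesis. Its mean log2 CPM separated the aortas by a gap of 2.48 into 8 with values from 5.48 to 7.83 (Ad-sham1, 3, 5 and 6 and Ad-FAM3A1, 3, 6 and 7) and 5 with values from −0.61 to 3.01 (Ad-sham2 and 4 and Ad-FAM3A2, 4 and 5). Agtr1a lay between 14.0 and 51.7 CPM in the 8 aortas and between 2.76 and 6.61 CPM in the 5, with no overlap, as for 3.96% of all genes tested and for none of the other 6 members tested. Smooth muscle genes ran the other way, with a mean log2 CPM from 6.60 to 8.95 in the 8 and from 8.84 to 9.65 in the 5, and with that score as a covariate the log2 fold change of Agtr1a was −1.01 (unadjusted p = 0.0494, adjusted p = 0.661, edgeR). Within the 8, r between Agtr1a and the score was 0.42 (exact permutation p = 0.287, adjusted p = 0.956 over 7 members) and 0.83 without the 2 aortas farthest from the median score, and Ad-FAM3A3, with the highest score, had Agtr1a at 15.6 CPM.

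Within each of these sets, which were defined after the data had been seen, the virus groups did not overlap for Agtr1a. In the 8 aortas high in sympathetic genes, Agtr1a ran from 31.0 to 51.7 CPM in the 4 Ad-sham aortas and from 14.0 to 19.3 CPM in the 4 Ad-FAM3A aortas. In the 5 aortas low in these genes, it ran from 6.35 to 6.61 CPM in the 2 Ad-sham aortas and from 2.76 to 4.98 CPM in the 3 Ad-FAM3A aortas. The difference in mean log2 CPM, Ad-FAM3A minus Ad-sham, was −1.12 in the first set and −0.73 in the second.

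Ren1 showed the same arrangement. It ran from 1.33 to 2.20 CPM in Ad-sham and from 0.122 to 0.985 CPM in Ad-FAM3A among the 8 aortas, and from 0.727 to 0.770 CPM in Ad-sham and from 0.0736 to 0.627 CPM in Ad-FAM3A among the 5. Absence of overlap in both sets, lower in Ad-FAM3A, was seen in 0.171% of all genes tested, with 0.278% in either direction, and nothing is read from this share for Ren1, which had passed the filter through Ad-sham. Over all 13 aortas together no member had groups that did not overlap, against 0.0949% of all genes tested in either direction and 0.0569% lower in Ad-FAM3A.

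**Figure D3:**
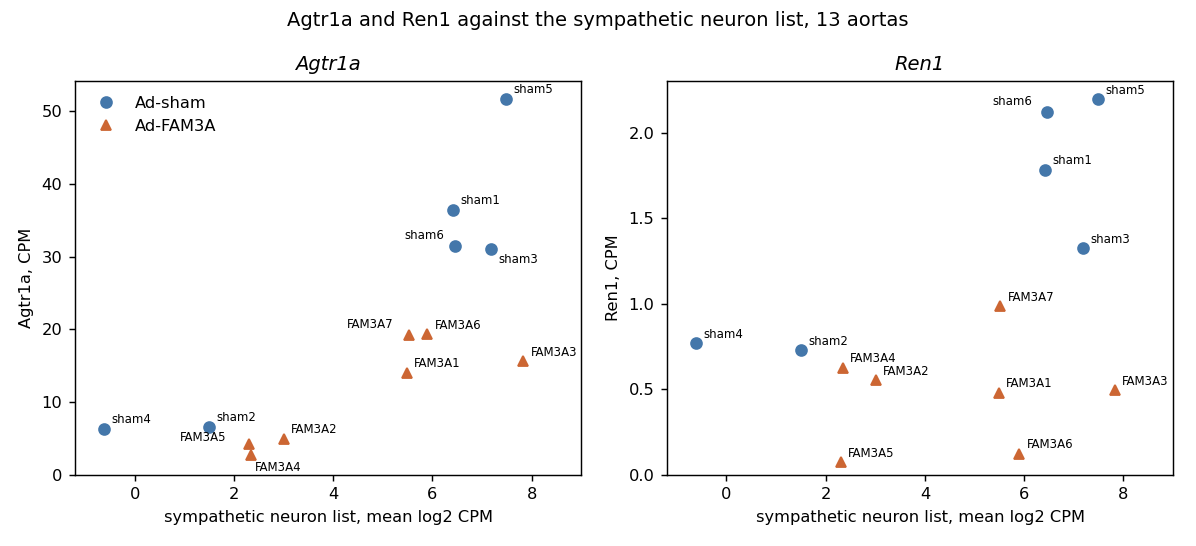
CPM of Agtr1a (left) and Ren1 (right) in each of 13 aortas against the mean log2 CPM of 6 sympathetic neuron genes, with circles for Ad-sham and triangles for Ad-FAM3A. Agtr1a is at 14.0 CPM or more in the 8 aortas on the right and at 6.61 CPM or less in the 5 on the left, and in both sets the Ad-sham points lie above the Ad-FAM3A points for both genes.

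With the sympathetic score as a covariate, a fit added after the data had been seen, the log2 fold change of Agtr1a was −1.08 with an SE of 0.25 in place of 0.56 (unadjusted p = 0.000795, adjusted p = 0.745, edgeR). That of Ren1 was −1.50 (unadjusted p = 0.00532, adjusted p = 0.745, edgeR). In this fit 2 of 7 members passed an unadjusted p under 0.05, both lower, against 6.29% of all genes in either direction and 3.35% lower. As Ren1 had met the filter through Ad-sham and the fit was added after the data had been seen, this count is a description only. Again 0 members passed the adjusted threshold. Of the 4 aortas high in kidney genes, 3 were Ad-sham aortas of the higher Agtr1a set, and without those 4 the log2 fold change of Agtr1a was −0.62 (unadjusted p = 0.424, edgeR). Without the 2 aortas highest in lymphoid genes it was −1.73 (unadjusted p = 0.0158, edgeR). The part of each of these tissues in the level of Agtr1a was not tested.

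Agtr1b encodes the second mouse AT1 receptor, better known from the adrenal and pituitary. Agtr1b (ENSMUSG00000054988, chr3:20314473-20367177, minus strand) had a lowest, median and highest level of 1.01, 1.62 and 5.46 CPM in Ad-sham and of 0.430, 1.62 and 4.27 CPM in Ad-FAM3A. The medians of the groups were alike, and high values occurred in both, in Ad-sham5, Ad-sham6 and Ad-FAM3A4. The log2 fold change was −0.51 (SE 0.53, adjusted p = 0.854, edgeR), and it turned to 0.33 without the 4 aortas highest in kidney genes. It ran from −0.86 without Ad-FAM3A4 to −0.16 without Ad-sham6. The 5 adrenal cortex markers together reached at most 3.31 CPM in any aorta, with Cyp11b1 and Cyp11b2 at or near 0.

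Agtr1a took most of the AT1 receptor counts in 12 of the 13 aortas. Its share of the Agtr1a and Agtr1b counts was 88.4% ± 7.78 (SD, n = 6) in Ad-sham and 80.5% ± 21.3 (SD, n = 7) in Ad-FAM3A, a difference of −7.87 percentage points (exact permutation p = 0.476). The exception was Ad-FAM3A4, with 44 counts of Agtr1a and 68 of Agtr1b, a share of 39.3% (95% exact binomial interval 30.2 to 49.0, for counting error only). Without this aorta the difference was −0.999 percentage points. In the 8 aortas high in sympathetic genes the share lay between 85.2% and 96.9%, and in the 5 others between 39.3% and 92.0%.

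Agtr2 encodes the AT2 receptor, abundant in the fetus and scarce in adult vessels. Agtr2 (ENSMUSG00000068122, chrX:21484544-21489164, plus strand) was counted 13, 2, 3, 3, 14 and 11 times in Ad-sham1 to Ad-sham6 and 4, 4, 1, 0, 0, 2 and 6 times in Ad-FAM3A1 to Ad-FAM3A7. All 7 Ad-FAM3A aortas lay below the Ad-sham median of 0.423 CPM, and the ranges overlapped between 2 and 6 counts. The exact permutation test of log2 CPM gave p = 0.0443 for this gene alone, but with many aortas near the 3 counts that an observed 0 allows (0.152 to 0.207 CPM), no fold is given.

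Mas1 encodes a receptor for a shorter, vasodilator angiotensin peptide. Mas1 (ENSMUSG00000068037, chr17:12841079-12868143, minus strand) was counted 0 to 12 times in Ad-sham and 0 to 6 times in Ad-FAM3A, with 0 counts in 1 Ad-sham and 4 Ad-FAM3A aortas. The exact permutation test gave p = 0.231, and a difference was not detectable at this depth. The gene overlaps the antisense transcript Airn, with 1463 counts in all, and since the use of strand in counting is not given in the sources used here, the few Mas1 counts cannot be separated from Airn.

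The remaining pathway was described by a list of 16 other genes, mostly peptidases, with receptors and receptor-binding proteins. Of these, 13 entered the test and 0 were called, against 0% of all genes, with 4 log2 fold changes positive, 9 negative and a median of −0.15. Over all genes tested, 7973 were positive and 7838 negative, with a median of 0.0032. Agtrap, which encodes a protein that binds the AT1 receptor and promotes its internalization, was the 1 gene of 13 with an unadjusted p under 0.05, against 5.91% of all genes. This count was 0 without Ad-sham4, Ad-sham5, Ad-FAM3A3, Ad-FAM3A4 or Ad-FAM3A5 and with library totals. It was also 0 without the 2 or the 4 aortas highest in kidney genes and without the 2 highest in lymphoid genes. It was 2 without Ad-FAM3A7, against 791 of 15639 of all genes, and 2 with no filter, against 2269 of 30782. Agtrap measured 26.4 to 45.5 CPM in Ad-sham and 22.6 to 34.7 CPM in Ad-FAM3A, with a log2 fold change of −0.36 (SE 0.15, unadjusted p = 0.0286, adjusted p = 0.810, edgeR). Atp6ap2, the prorenin receptor, had the highest level per length of the list, a median of 37.5 RPKM, followed by Ctsa at 31.7 RPKM and Anpep at 15.4 RPKM, and Ctsa overlaps the abundant antisense gene Pltp.

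Of 23 genes of AT1 receptor signalling, from the G proteins to the NADPH oxidases, 22 entered the test and 0 were called, as were 0% of all genes. Log2 fold changes were positive for 14 and negative for 8, with a median of 0.19. Over all genes tested, 7973 were positive and 7838 negative, with a median of 0.0032. Arhgef11, an exchange factor downstream of the receptor's G proteins, was the 1 gene of 22 with an unadjusted p under 0.05, against 5.91% of all genes, at −0.33 (SE 0.14, unadjusted p = 0.0285, adjusted p = 0.810, edgeR). This count was 0 without Ad-sham3, Ad-sham5 or Ad-sham6, 2 without Ad-sham4 or Ad-FAM3A5, 3 without Ad-FAM3A4 and 4 without Ad-FAM3A6. Of all genes, 1221 of 16022 passed without Ad-sham4, 740 of 15730 without Ad-FAM3A5, 854 of 15685 without Ad-FAM3A4 and 842 of 15654 without Ad-FAM3A6. With the sympathetic score as a covariate the count was 2, against 995 of 15811 of all genes. With the smooth muscle score as a covariate it was 4, against 1152 of 15811. Without both aortas highest in lymphoid genes it was 5, against 994 of 15843. In each case 0 of the signalling genes were called at an adjusted p under 0.05.

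**Figure D4:**
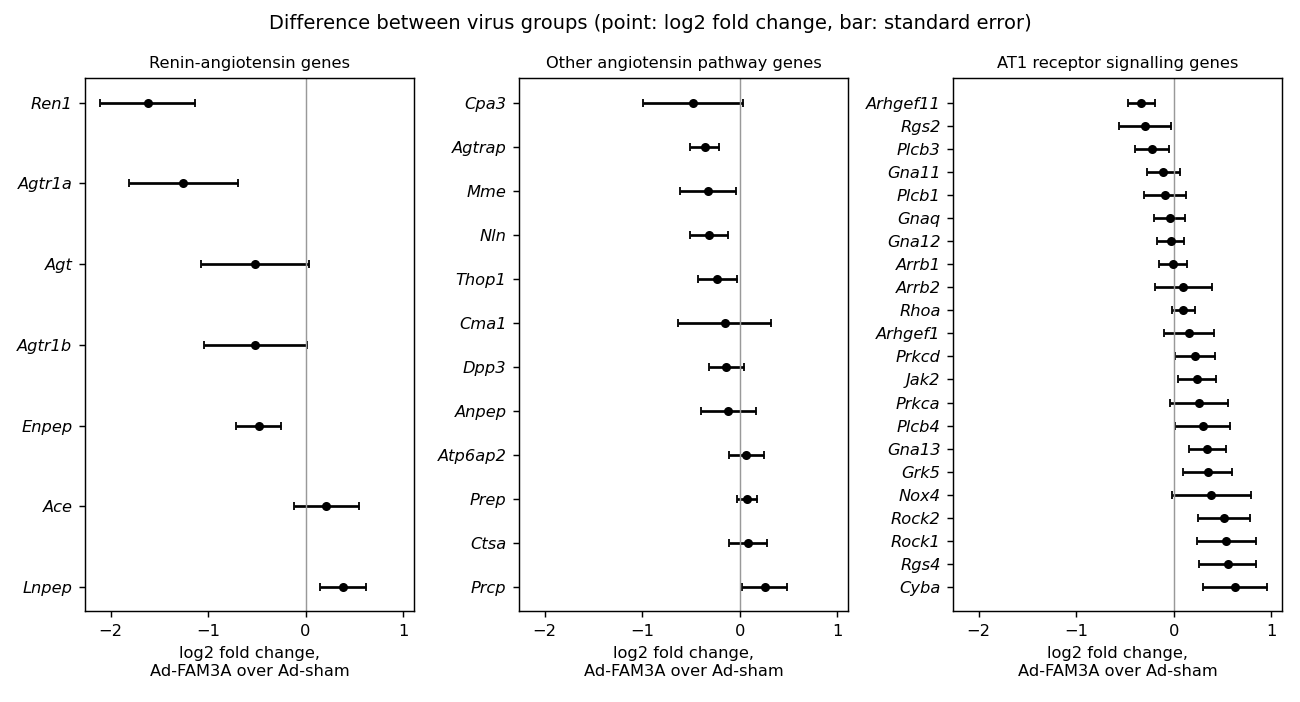
Log2 fold change, Ad-FAM3A over Ad-sham, with its standard error (edgeR) for the 7 renin-angiotensin genes tested, 12 of the 13 other angiotensin pathway genes and 22 AT1 receptor signalling genes. Ren1 at −1.62 and Agtr1a at −1.25 lie farthest from 0, and no gene shown passed an adjusted p under 0.05.

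Across the 13 aortas, Ace ran with smooth muscle genes and Lnpep against white fat genes, though neither relation held under every setting tried. Of log2 CPM, 70 relations were computed, between members and marker lists and between pairs of members, and in 2 of them, both with a marker list, both Pearson's r and Spearman's ρ passed an adjusted permutation p of 0.05. Ace followed the smooth muscle list, with r = 0.88 (adjusted permutation p = 0.0077) and ρ = 0.79 (adjusted permutation p = 0.0399). This r was 0.70 without the 2 aortas farthest from the median of the list, 0.76 within Ad-sham and 0.98 within Ad-FAM3A. With the smooth muscle score as a covariate, the log2 fold change of Ace was −0.05.

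Lnpep was lower where the white fat list was higher, with r = −0.86 (adjusted permutation p = 0.0077) and ρ = −0.85 (adjusted permutation p = 0.0322). This r was −0.82 without the 2 farthest aortas, −0.94 within Ad-sham and −0.81 within Ad-FAM3A. Agt ran the other way, with r = 0.73 (adjusted permutation p = 0.0762) and ρ = 0.76 (adjusted permutation p = 0.0479) against white fat, so that only the rank measure passed. Agtr1a had an r of −0.73 (adjusted permutation p = 0.0762) and a ρ of −0.78 (adjusted permutation p = 0.0399) against smooth muscle. For Agtr1b against pericyte genes, r was 0.63 (adjusted permutation p = 0.188) and ρ 0.82 (adjusted permutation p = 0.0357). With levels scaled by library totals, 0 of the 70 passed on both measures, and leaving out 1 aorta at a time gave 0 to 3. The count was 0 without Ad-sham1, Ad-sham3, Ad-sham6, Ad-FAM3A1, Ad-FAM3A4 or Ad-FAM3A5, 1 without Ad-sham2, Ad-FAM3A3, Ad-FAM3A6 or Ad-FAM3A7, and 3 without Ad-FAM3A2.

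**Figure D5:**
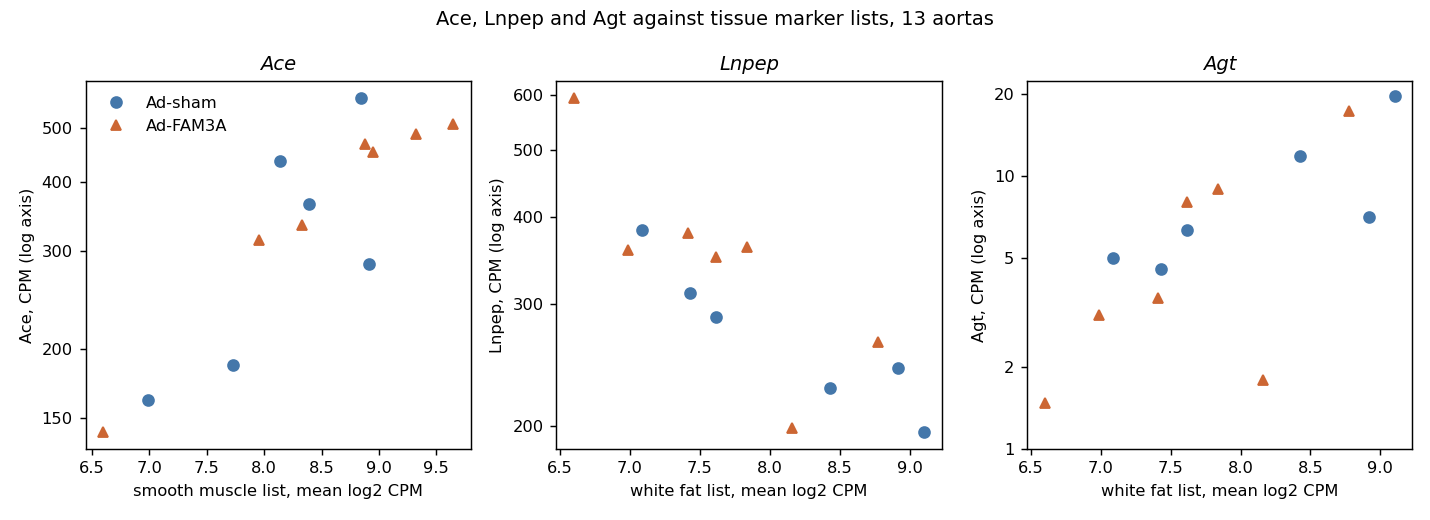
CPM on a log axis of Ace against the smooth muscle list and of Lnpep and Agt against the white fat list (mean log2 CPM of each list), with 1 point per aorta (circles Ad-sham, triangles Ad-FAM3A). Ace runs upward, with r = 0.88, Lnpep downward, with r = −0.86, and Agt upward more loosely, with r = 0.73.

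For each member tested, the genes closest to it over the 13 aortas were found by Spearman's ρ among all 15811 genes, as a description with no test, the points sharing their libraries and tissue content. Agtr1a was closest to Gjc3 (ρ 0.94), a connexin of glial cells, Lrrc4c (0.94), a synaptic adhesion molecule, and Shisa2 (0.93). Agtr1b was closest to Nr2f2, Hhip and Arhgap20 (each 0.91), and shared none of these with Agtr1a. Ace was closest to Cdh13 (0.97), Marveld1 (0.97) and Ctnnb1 (0.96), which encode T-cadherin, a membrane protein and beta-catenin. Agt was closest to Reep6 (0.95), Meox1 (0.91) and Ccr10 (0.90), and Ren1 to Zim1 (0.89), Cnr1 (0.86) and Hcar2 (0.86). Enpep was closest to Lbp, Dennd2c and Srpx (each 0.91), and Lnpep to Rcor1 (0.97), Mga (0.96) and Phc3 (0.96), all 3 of which encode chromatin or transcription regulators.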

How the data were processed

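Reads had been filtered for quality by the authors, mapped against GRCm38 (Hisat2) and assigned to genes (FeatureCounts). The deposited table holds raw counts per gene and aorta, and a second deposited column pair holds the authors' mean FPKM per group. The labels and the study's methods name different extraction and library kits, and strand use and the annotation release are not given in the sources used here. Counts were tested with edgeR 4.0.16 (R 4.3.3, filterByExpr, TMM, quasi-likelihood, no covariate, Benjamini-Hochberg over 15811 genes), with DESeq2 1.42.0 as an alternative. Log2 CPM used a prior count of 2, and exact permutation tests used scipy 1.17.1. The scripts were tested on simulated data. Correlation p-values came from 100000 permutations, the smallest possible being 1e-05. Members and gene lists were chosen with earlier results of these data known. Named were all members, pathway genes at an unadjusted p under 0.05 or among the 3 highest levels, and the 3 genes closest to each member. Klk1 was chosen after its values were seen. Coordinates of 9 of 9 members equalled the reference annotation. Results for some items are not reported here.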

Additional observations from a re-analysis of the deposited data

Results flagged for a closer look

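Of 20 groups of member values examined, 1 held an aorta far from the others, where chance alone gives about 1. Ace in Ad-FAM3A6 was at 7.15 on the log2 CPM scale, and the other 6 Ad-FAM3A aortas lay between 8.30 and 8.99. The same aorta had the lowest smooth muscle score of the 13, 6.60 on the log2 CPM scale. The part of smooth muscle content in its Ace level was not tested.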

How the results depend on the processing

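Over 28 alternative settings, 192 of 194 fold changes of the 7 members tested kept their direction, and the smallest adjusted p was 0.203, for Ren1 with DESeq2. The exceptions were Ace, at −0.047 with the smooth muscle score as a covariate, and Agtr1b, at 0.33 without the 4 aortas highest in kidney genes. DESeq2 called 10 genes in all, none of them a member, where edgeR called 0. The number of the 70 relations that passed on both measures was 0 with library totals and 0 to 3 when 1 aorta was left out. With a replicate block, fitted on replicate numbers that the groups share, the log2 fold change was −1.32 for Agtr1a (unadjusted p = 0.0079), −1.90 for Ren1 (unadjusted p = 0.0167) and −0.56 for Enpep (unadjusted p = 0.0168) in edgeR, each with an adjusted p of 0.978. Same-numbered aortas correlated at −0.33 to 0.45, and of 6 numbers only 1 was the best match, so the samples share only a number. The alternative with Xist as a covariate was not run, because all 13 libraries were under 1 CPM. Low counts limit Ren1, Agtr2 and Mas1, and the count minimum of 10 in every aorta left no value for Ren1 or Agtr1b.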

Other observations

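Klk1, a kallikrein of the kidney and salivary gland whose product frees kinins, failed the filter but was uneven among the aortas. It had 672 counts in Ad-FAM3A3 and 552 in Ad-FAM3A6, and at most 53 in each of the other 11. By the mean log2 CPM of the lists, Ad-FAM3A3 was the aorta highest in kidney genes and Ad-FAM3A6 the one highest in lymphoid genes, while by summed CPM the highest kidney level was in an Ad-sham aorta. No test was made.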
